A study of Homo sapiens with 4 samples.

Results

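The 10 genes described here handle iron in the cell, and they were chosen by name as the ferritin subunits and the main genes for the uptake, export, release and sensing of iron (FTH1, FTL, TFRC, STEAP3, SLC11A2, SLC40A1, NCOA4, HMOX1, ACO1 and IREB2). The set was proposed with the FPKM of these same libraries in view, FTH1 among them, so its levels and differences are a description. All 10 were found among the 19475 gene symbols of the deposited table, as 31 of its 50078 RefSeq transcripts, and each gene is represented by whichever of its transcripts had the highest mean FPKM, a measure defined further on. SKOV3, a line derived from a human ovarian carcinoma, gave 2 libraries of cells on a tissue culture plate (TCP), labelled day 0, and 2 libraries of spheroids grown on a plate coated with polymer X, labelled day 8. The labels name no inhibitor and no genetic change in any of the 4 libraries. The methods of the study grew SKOV3 stocks in RPMI-1640 with fetal bovine serum and spheroids in medium with serum replacement, while the labels give serum replacement for every library. Substrate, culture time and possibly medium therefore changed together and cannot be told apart.

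Iron is carried into most cells by transferrin, which binds the transferrin receptor and is taken up into endosomes, where the iron is reduced and moved into the cytosol. What is not used is stored in ferritin, a hollow shell of heavy and light subunits, or exported by ferroportin. The iron regulatory proteins sense the cytosolic iron pool and bind a short RNA hairpin, the iron-responsive element. Bound near the 5′ end of a transcript they hold back its translation, and bound in the 3′ UTR of the transferrin receptor transcript they protect it from decay. RNA-seq measures the transcript only, so neither translation nor iron was observed here.

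The hairpins are shown first because they set apart the members whose transcripts hold this element. Transcripts of GENCODE release 29 (GRCh38) were searched on the sense strand for a C, 5 bases, the loop CAGTGN and 5 bases that pair back to the first 5, with G-U pairs allowed. The members were chosen by name as iron genes, so the shares that follow are a description. All 10 members had a transcript that GENCODE links to the RefSeq identifier used here. Of these linked transcripts, 4 held the element. Among 19669 protein-coding genes, 1.48% had any transcript holding it, and among 83129 protein-coding transcripts 0.741% held it. FTH1 holds it in exon 1 in the 5′ UTR (chr11:61967574-61967603, minus strand), FTL in exon 1 in the 5′ UTR (chr19:48965334-48965363, plus strand) and SLC40A1 in exon 1 in the 5′ UTR (chr2:189580661-189580690, minus strand). TFRC holds 4 copies in exon 19, in its 3′ UTR, between positions 196050463 and 196051008 of chromosome 3 (minus strand). Each is printed as the 30 bases around it, with the 6 loop bases in capitals.
FTH1: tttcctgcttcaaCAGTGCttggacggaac
FTL: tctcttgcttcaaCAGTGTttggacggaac
SLC40A1: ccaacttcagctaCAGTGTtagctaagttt
TFRC, copy 1: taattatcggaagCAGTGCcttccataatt
TFRC, copy 2: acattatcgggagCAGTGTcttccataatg
TFRC, copy 3: tctgtatcggagaCAGTGAtctccatatgt
TFRC, copy 4: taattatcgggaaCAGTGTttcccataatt
The FTH1 and FTL windows are identical at 27 of 30 bases and differ by T2C, C5T and C19T, counted from 1 at the 5′ end with the FTH1 base first. The other 6 members held no match to this strict pattern, which says only that these letters are not in the transcripts searched. For each member this was the linked transcript alone. Looser forms of the element were not examined for the members, nor were their other transcripts, such as those of SLC11A2 with a different 3′ end. The members are described below in the order storage, uptake, export, release and sensing.

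Expression is given as FPKM, the tags on the exons of a transcript per kilobase, scaled to the tags of the library. The spacing of the lowest values put the tags per library between 38404000 and 44914000. Across the 11964 genes tested, the libraries of one condition correlated at 0.998 (TCP) and 0.997 (polymer X), and those of different conditions at 0.854 to 0.862. Of 10 markers of SKOV3 and epithelium, 5 (KRT7, KRT8, KRT18, ERBB2 and PAX8) reached an FPKM of 1 in every library and KRT19, MUC16, WT1 and CDH1 lay under it in every library. EPCAM was at 0.168 and 0.104 on TCP and at 1.39 and 1.325 on polymer X. The summed FPKM of the 10 was 641 to 654 on TCP and 1207 to 1258 on polymer X, and without ERBB2, which was at 198 and 206 on TCP and 913 and 860 on polymer X, it was 442 to 449 and 344 to 347. PAX8 was higher on polymer X like ERBB2, whereas KRT7, KRT8 and KRT18 were lower. Markers of leukocytes, endothelium and erythroid cells reached at most 0.573, with 4 of 12 at 0 in all libraries, and their summed FPKM was 0.065 to 0.118 on TCP and 1.37 in both polymer X libraries. The highest of them on polymer X were PECAM1, at 0.573 and 0.458, and PTPRC, at 0.468 and 0.53. On TCP PECAM1 was at 0 in both libraries and PTPRC at 0.005 and 0. The part of either marker list in the results below was not tested.

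FTH1, the ferritin heavy subunit that oxidises iron as it enters the shell, was more abundant on polymer X than on TCP in both libraries, while the values of FTL, the light subunit that helps form the mineral core, overlapped between the conditions. FTH1 (NM_002032, hg19 chromosome 11, 61731757 to 61735132) had an FPKM of 2994 and 3027 in TCP replicates 1 and 2 and of 9302 and 9385 in polymer X replicates 1 and 2. Both polymer X libraries lay far above both TCP libraries, and the replicates of a condition differed by little against that gap. The mean went from 3011 ± 23.4 (SD, n = 2) to 9343 ± 58.8 (SD, n = 2), which was 3.10-fold higher and a log2 fold change of 1.63 (standard error, SE, 0.10). Among all 19475 symbols FTH1 ranked 2 and 1 by FPKM in the TCP libraries and 1 in both polymer X libraries. Its share of all tags was 0.366% and 0.370% on TCP, against 1.14% and 1.15% on polymer X. In such bulk libraries, a change in the kinds of cell present and a change in RNA per cell cannot be told apart.

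FTL (NM_000146, hg19 chromosome 19, 49468566 to 49470136) had an FPKM of 774 and 716 on TCP and of 756 and 760 on polymer X. The polymer X values lay between the TCP values, so the conditions overlapped. The means were 745 ± 40.9 (SD, n = 2) and 758 ± 3.36 (SD, n = 2), with a log2 fold change of 0.03 (SE 0.07), and without TCP replicate 2 it was -0.03. The ratio of FTH1 to FTL, each in FPKM and therefore per length, was 3.87 and 4.23 in the TCP libraries and 12.3 in both polymer X libraries. Its mean was 4.05 ± 0.253 (SD, n = 2) on TCP and 12.3 ± 0.0229 (SD, n = 2) on polymer X. So, in FPKM as deposited, the ratio was higher in both polymer X libraries, through FTH1 and not through FTL.

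**Figure D1:**
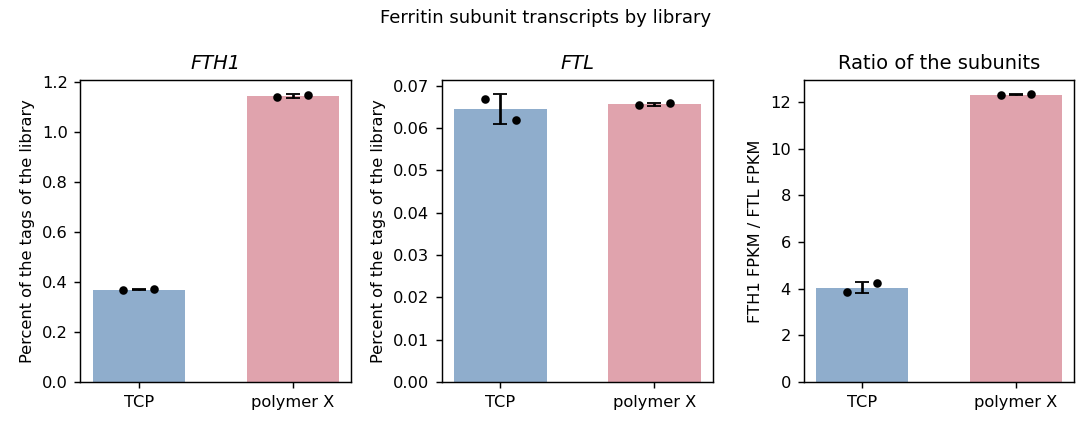
Share of all tags of the library for FTH1 (left) and FTL (centre), in percent, and the ratio of their FPKM (right), for TCP and polymer X. Bars are means, error bars the SD over 2 libraries and points the libraries. The FTH1 share lies at 0.366% and 0.370% on TCP and at 1.14% and 1.15% on polymer X, whereas the FTL shares overlap.

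Tags shared with other loci touch these values. BEST1, on the opposite strand, overlaps the 3′ end of FTH1 by 179 bases, and the counting ignored strand. BEST1 had 160 and 180 tags on TCP and 603 and 635 on polymer X, against 140624 to 466964 for FTH1. Ferritin also has many processed copies in the genome. The 3 other ferritin-like transcripts listed (FTH1P18, FTHL17 and FTMT, the mitochondrial ferritin) were at 0 in all libraries. Tags that fit other copies were not analysed here, so the levels of FTH1 and FTL are uncertain to that extent. Scaling by quantiles also bears on FTH1. It gives the top-ranked gene of every library the same value by construction, and FTH1 ranks 1 or 2 throughout. Under it the log2 fold change of FTH1 was 0.43 (SE 0.23), short of the call. That of FTL was 0.27 (SE 0.06) under the same scaling, also short of the call.

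The rule that calls a gene changed was an adjusted p under 0.05 from limma, fitted across all tested genes with Benjamini-Hochberg adjustment, together with a log2 fold change of 1 or more in size. By it 20.2% of the 11964 tested genes were called, 10.7% higher and 9.45% lower on polymer X. All 10 members passed the filter on low values, and 1 of them, FTH1, was called higher and 0 lower. Without the fold minimum, 3 members were higher and 5 lower at an adjusted p under 0.05, against 37.4% and 43.6% of all tested genes, or 81.0% in either direction. The values of both conditions did not overlap for 9 of the 10 members, against 90.4% of all tested genes. These counts are likewise a description, and no p is given for a member. The methods speak of independent replicates for all experiments in general, but neither they nor the labels say that these libraries came from separate cultures, so all p-values measure only the spread between these samples. The median log2 fold change of the 10 members was -0.08, beside -0.06 for all tested genes.

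**Figure D2:**
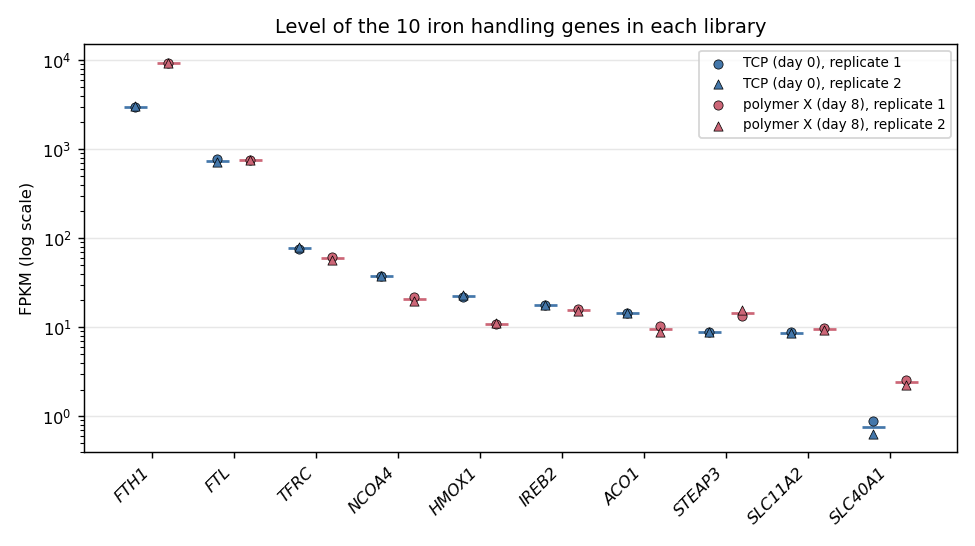
FPKM (log axis) of the 10 genes in each library, ordered by their mean on TCP; circles are replicate 1, triangles replicate 2 and short lines the mean of each condition. FTH1 stands above the other genes in all libraries, and SLC40A1, at 0.639 to 2.59, is the lowest.

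Of the uptake genes, the transferrin receptor was somewhat lower on polymer X, the endosomal reductase was higher and the endosomal transporter was nearly level. TFRC, the transferrin receptor (NM_001128148, hg19 chromosome 3, 195776155 to 195809032), had an FPKM of 75.4 and 79.3 on TCP and of 61.3 and 57.4 on polymer X. Both polymer X libraries lay below both TCP libraries. The mean went from 77.4 ± 2.76 (SD, n = 2) to 59.3 ± 2.74 (SD, n = 2), or -0.38 as log2 fold change (SE 0.06), and -0.03 under quantile normalization. Its 4 transcripts listed were at 0.767 to 0.803 times their TCP level.

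STEAP3, the reductase that converts ferric to ferrous iron in the endosome (NM_001008410, hg19 chromosome 2, 119981384 to 120023227), had an FPKM of 8.91 and 8.93 on TCP and of 13.3 and 15.6 on polymer X. The TCP libraries were nearly equal, while the polymer X libraries differed from each other by more and both lay above them. The mean was 8.92 ± 0.0113 (SD, n = 2) and 14.4 ± 1.59 (SD, n = 2), which was 1.62-fold higher, with a log2 fold change of 0.63 (SE 0.08). Its 4 transcripts were 1.61-fold to 1.62-fold higher.

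SLC11A2 (DMT1), which moves ferrous iron out of the endosome and is also the intestinal iron importer (NM_001174127, hg19 chromosome 12, 51373566 to 51420199), had an FPKM of 8.82 and 8.58 on TCP and of 9.86 and 9.21 on polymer X. The conditions did not overlap, but the gap between them was no larger than the difference between the polymer X libraries. The mean was 8.70 ± 0.165 (SD, n = 2) and 9.54 ± 0.462 (SD, n = 2), or 0.12 as log2 fold change (SE 0.07). The gene has 7 transcripts listed with alternative 3′ ends. The pair ending at position 51373566 was 1.10-fold higher, and the other 5, ending at 51379775, were 1.03-fold to 1.05-fold higher.

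SLC40A1, ferroportin, the exporter of iron (NM_014585, hg19 chromosome 2, 190425316 to 190445537), was the least abundant member and had a fold change as large as that of FTH1. Its FPKM was 0.880 and 0.639 on TCP and 2.59 and 2.26 on polymer X, that is, 113 and 96 tags against 347 and 307. Both polymer X libraries lay above both TCP libraries by more than the replicates differed. The mean was 0.760 ± 0.170 (SD, n = 2) and 2.42 ± 0.238 (SD, n = 2), or 3.19-fold higher. On the log2(FPKM + 1) scale, which understates the change of low genes, the log2 fold change was 0.96 (SE 0.10), just under the minimum for a call. With a pseudocount of 0.1 in place of 1 it was 1.57 and past that minimum. It was 1.06 without TCP replicate 1 and 1.03 without polymer X replicate 2. In contrast, it was 0.86 without TCP replicate 2, 0.89 without polymer X replicate 1 and 0.59 under quantile normalization. The gene entered the test only through its polymer X libraries, since both TCP values were under 1.

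Both genes that release iron, from ferritin or from heme, were lower in both polymer X libraries. NCOA4, the receptor that delivers ferritin to the autophagosome for breakdown (NM_005437, hg19 chromosome 10, 51572364 to 51590734), had an FPKM of 37.3 and 38.1 on TCP and of 21.9 and 19.5 on polymer X. The conditions were well apart. The mean went from 37.7 ± 0.584 (SD, n = 2) to 20.7 ± 1.69 (SD, n = 2), which was 1.82-fold lower. The log2 fold change was -0.83 (SE 0.07), and -0.58 under quantile normalization. The 5 transcripts listed were at 0.550 to 0.552 times their TCP level. The span of TIMM23B, on the same strand, contains NCOA4, and it had at most 284 tags in a library.

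HMOX1, heme oxygenase, which frees the iron of heme and is induced by heme and oxidative stress (NM_002133, hg19 chromosome 22, 35777060 to 35790207), had an FPKM of 21.7 and 23.0 on TCP and of 10.9 and 11.1 on polymer X. The replicates of each condition were close together and the conditions did not overlap. The mean went from 22.3 ± 0.920 (SD, n = 2) to 11.0 ± 0.150 (SD, n = 2), which was 2.03-fold lower. The log2 fold change was -0.96 (SE 0.06), short of the minimum for a call. It was -1.01 and past that minimum with a pseudocount of 0.1, and -0.81 under quantile normalization. FTH1 and HMOX1, both known targets of the factor NRF2, thus lay on opposite sides of no change.

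Of the iron regulatory proteins, ACO1 was lower on polymer X by more than IREB2. ACO1, a cytosolic aconitase that becomes iron regulatory protein 1 when it loses its iron-sulfur cluster (NM_002197, hg19 chromosome 9, 32384601 to 32450832), had an FPKM of 14.5 and 14.6 on TCP and of 10.5 and 8.89 on polymer X. The polymer X libraries lay below both TCP libraries and differed from each other more than these did. The mean was 14.6 ± 0.115 (SD, n = 2) and 9.68 ± 1.11 (SD, n = 2), with a log2 fold change of -0.55 (SE 0.08).

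IREB2, iron regulatory protein 2, which is degraded when iron is ample (NM_001320941, hg19 chromosome 15, 78730518 to 78793798), had an FPKM of 17.8 in both TCP libraries and of 16.0 and 15.1 on polymer X. The gap was small but larger than the spread of either condition. The log2 fold change was -0.19 (SE 0.06), and -0.03 under quantile normalization. Of its 5 transcripts listed, 4 were at 0.869 to 0.880 times their TCP level. The short one of 1616 bases (NM_001320943, ending at 78766164) went from 13.7 ± 0.124 (SD, n = 2) to 7.54 ± 0.824 (SD, n = 2), or 0.550 times. Its span lies within that of the long ones, so the values are not independent, and its lower level was noticed in the data and not tested.

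**Figure D3:**
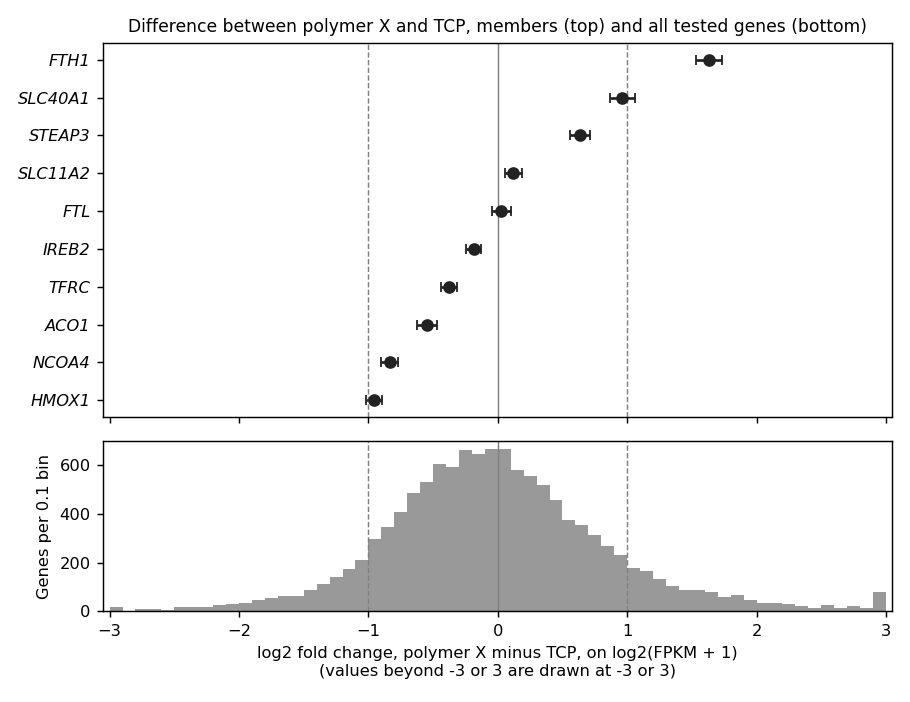
Top, log2 fold change of each of the 10 genes between polymer X and TCP on log2(FPKM + 1), with its SE from limma; bottom, the same quantity for all 11964 tested genes in bins of 0.1. Dashed lines mark the minimum for a call, which FTH1 at 1.63 passes while SLC40A1 at 0.96 and HMOX1 at -0.96 lie just inside.

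By FPKM, the order on TCP was FTH1, FTL, TFRC, NCOA4, HMOX1, IREB2, ACO1, STEAP3, SLC11A2 and SLC40A1. All neighbours in this order were separate over both TCP libraries, with STEAP3 at 8.91 and 8.93 and SLC11A2 at 8.58 and 8.82 the closest. On polymer X the first 4 places were the same, and STEAP3 stood above HMOX1, SLC11A2 and ACO1. IREB2 and STEAP3 overlapped there, as did ACO1 and SLC11A2. Against all tested genes, the log2 fold change of FTH1 was higher than that of 95.8% and that of SLC40A1 higher than that of 88.5%, while HMOX1 and NCOA4 stood above 10.5% and 13.7%.

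Other genes of the pathway were described by 7 lists written out from general knowledge, and none of their genes is a member. The lists were chosen with earlier results of these data known, so their counts, shares and p-values are a description. In the list for iron uptake, export and its systemic regulators, 5 genes were called higher on polymer X and 0 lower, of 14 tested among 24 listed. This was 35.7% called higher, beside 10.7% of all tested genes, and the list had a median log2 fold change of 0.44. However, 3 of the 5 (LCN2, STEAP1 and STEAP2) would not have passed the filter on low values without their polymer X libraries. A filter passed in this way favours genes that are higher on polymer X, so the share supports nothing about the list. Ceruloplasmin (CP), the copper ferroxidase that works with ferroportin, rose most. Its FPKM was 3.66 and 3.45 on TCP and 167 in both polymer X libraries, or 5.21 as log2 fold change (SE 0.06, adjusted p = 6.1e-11 from limma). LCN2, a secreted protein that binds iron-carrying siderophores, was at 1.12 ± 0.180 FPKM (SD, n = 2) on TCP and 25.4 ± 0.312 (SD, n = 2) on polymer X. SLC22A17, described as its receptor, rose by a log2 fold change of 1.66 (adjusted p = 8.5e-08 from limma). STEAP1, a paralog of STEAP3, was at 0.718 and 0.546 FPKM on TCP and 3.63 and 3.41 on polymer X. The fifth was STEAP2, with a log2 fold change of 1.18, named after its value was seen, and it was not called under quantile normalization, at 0.90, or without polymer X replicate 1, at 0.998. The most abundant other genes of the list, SLC39A14 and SNX3, had log2 fold changes of -0.24. The other 10 genes listed, transferrin (TF) and hepcidin (HAMP) among them, were too low to be tested.

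The machinery that loads ferritin, breaks it down or controls the iron regulatory proteins had 16 tested genes of 18. Of these, 0 were called higher and 1 lower, or 6.2% called lower beside 9.45% of all tested genes. The gene called lower was GLRX3, a glutaredoxin that passes on iron-sulfur clusters. It went from 56.7 ± 5.20 FPKM (SD, n = 2) to 27.2 ± 0.671 (SD, n = 2), or -1.03 as log2 fold change (adjusted p = 8.0e-07 from limma). It no longer met the minimum under quantile normalization, at -0.75, under median scaling, at -0.99, or without TCP replicate 1, at -0.94. The iron chaperones that load ferritin were abundant and not called, PCBP1 at a log2 fold change of -0.45 and PCBP2 at -0.28, the latter at 0.06 under quantile normalization. The median of the list was -0.41.

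Among the heme genes, 0 of 19 tested were called higher and 1 lower. This was 5.3% called lower beside 9.45% of all tested genes, with a median of -0.18. By the adjusted p under 0.05 from limma alone, 6 were higher and 10 lower, beside 37.4% and 43.6% of all tested genes. CPOX, an enzyme of heme synthesis, was at -0.78, and the biliverdin reductases, which act after heme oxygenase, were at -0.07 (BLVRA) and 0.70 (BLVRB).

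For the mitochondrial iron and iron-sulfur cluster genes, 0 of 22 tested were called higher and 2 lower. This was 9.1% called lower beside 9.45% of all tested genes, with a median of -0.20. GLRX5, which carries the cluster from its scaffold, went from 33.5 ± 1.14 to 14.3 ± 0.840 FPKM (SD, n = 2), or -1.17 as log2 fold change (adjusted p = 1.7e-07 from limma), and at -0.97 under quantile normalization it was not called. BOLA3, a late assembly factor, had -1.12 (adjusted p = 2.1e-05 from limma), and its TCP libraries were far apart at 45.2 and 32.8 FPKM. Without the higher of these it was at -0.89 and not called, and under quantile normalization it was also at -0.89 and not called. Of the 9 cytosolic assembly genes 0 were called higher and 0 lower by the rule. Without the fold minimum, 1 was higher and 7 lower at an adjusted p under 0.05 from limma, beside 81.0% of all tested genes in either direction. CIAPIN1 was closest, at -0.99.

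Of 24 tested genes of the NRF2 pathway, 0 were called higher and 6 lower. This was 25.0% called lower beside 9.45% of all tested genes, with a median of -0.50. By the adjusted p under 0.05 from limma alone, 5 were higher and 15 lower, beside 37.4% and 43.6% of all tested genes. NQO1, a quinone reductase, had an FPKM of 126 and 119 on TCP and of 32.3 and 30.1 on polymer X, or -1.95 as log2 fold change (SE 0.06, adjusted p = 6.8e-09 from limma). GCLM, a subunit of the enzyme that starts glutathione synthesis, fell from 14.7 ± 0.365 to 3.04 ± 0.0693 FPKM (SD, n = 2), 4.84-fold lower. TXNRD1, thioredoxin reductase, and PRDX1, a peroxiredoxin, fell with log2 fold changes of -1.65 and -1.42. TKT, of the pentose phosphate pathway, was at -1.03, and at -0.68 under quantile normalization and -0.99 under median scaling it was not called. The sixth was SLC7A11, the cystine importer, at -1.18, named after its value was seen. HMOX1 lay on the same side as these genes and FTH1 on the other.

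In the list of ferroptosis defence and lipid peroxidation, 1 of 16 tested genes was called higher and 1 lower, or 6.2% each, beside 10.7% and 9.45% of all tested genes, with a median of -0.0002. ALOX5, a lipoxygenase, was at 0.402 and 0.308 FPKM on TCP and at 17.1 in both polymer X libraries, or 3.74 as log2 fold change (SE 0.07). It entered the test only through polymer X, so its call supports nothing about the list. ACSL3, which activates fatty acids, had -1.04 (adjusted p = 4.0e-07 from limma). It was not called under quantile normalization, at -0.87, under median scaling, at -0.9996, or without polymer X replicate 2, at -0.99. GPX4, the peroxidase that reduces lipid hydroperoxides, was at -0.32, and at 0.01 under quantile normalization.

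**Figure D4:**
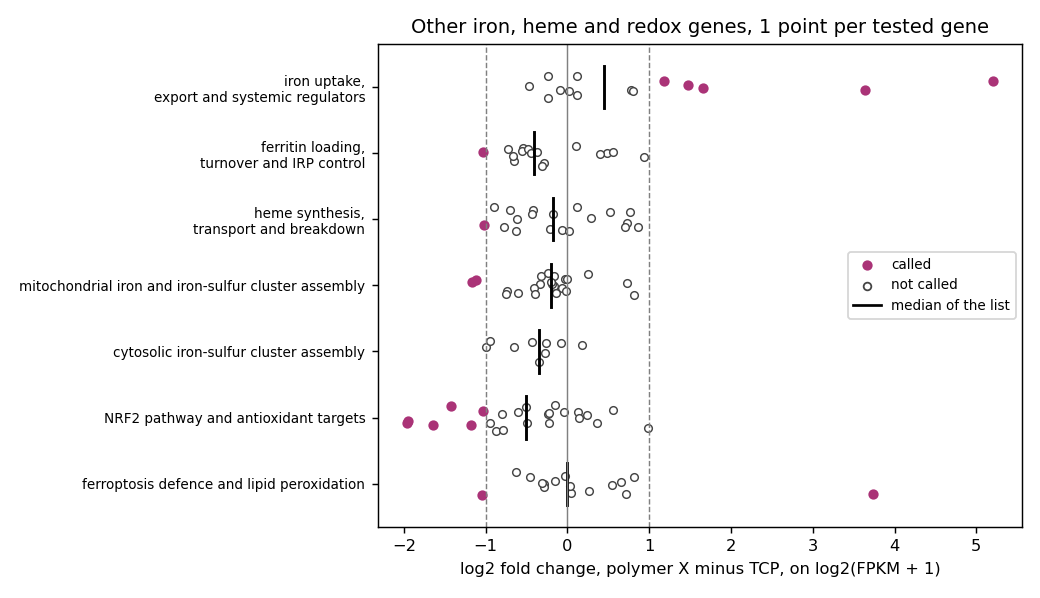
Log2 fold change between polymer X and TCP on log2(FPKM + 1) for each tested gene of the 7 lists; filled points are called, open points are not, and black bars are the list medians. CP at 5.21 and ALOX5 at 3.74 lie far to the right, and the 6 called genes of the antioxidant list lie to the left.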

How the data were processed

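mRNA of SKOV3 cells was sequenced in 2 TCP and 2 polymer X libraries. The deposited table holds FPKM per RefSeq transcript (hg19), which the authors computed with HOMER over exons of both strands although the kit was directional. STAR 2.4.0 and DESeq are also named in the submitters' processing notes. The file header lists further libraries, but the table holds 0 FPKM columns beyond those used here. Transcript lengths in bases came with the deposited table. Tags per library, 38404000 to 44914000, were recovered from the FPKM steps, since low values were whole multiples of one tag within 0.1. At this depth 3 tags on 2000 bases equal an FPKM of 0.0334 to 0.0391.

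For each symbol the transcript with the highest mean was kept, so a gene whose main transcript switches is followed by 1 of them. Genes that reached an FPKM of 1 in 2 or more libraries entered limma 3.58.1 (R 4.3.3) on log2(FPKM + 1), with a trend in the variance and Benjamini-Hochberg adjustment, and the fit was tested on simulated data. With 2 libraries against 2, an exact permutation test of 1 gene cannot go below a two-sided p of 0.333. The members and lists were chosen with earlier results of these data known. Named genes were all members and, from each other list, up to 4 called genes per direction, by size of change, and the 4 most abundant tested ones, with markers named by symbol. The values of 1 gene that this rule named are not reported here. Alternatives covered the pseudocount, the filter, the scaling, summed transcripts, the variance trend, a replicate block and each library left out.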

Additional observations from a re-analysis of the deposited data

How the results depend on the processing

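Of the counts and ratios over all settings, 189 stayed within 1.5 times the value given or within the replicate spread and 33 did not. With a mean FPKM of at least 5, 702 genes were called higher and 960 lower, and 3 iron uptake genes were higher. With a pseudocount of 0.1, 2 members were called higher and 1 lower, 2 heme genes higher and 2 lower, 2 cytosolic cluster genes lower, 1 antioxidant gene higher and 2 ferroptosis genes higher. Under quantile normalization 0 members were called higher, 1 ferritin loading gene higher and 0 lower, 0 heme and 0 mitochondrial genes lower, and 2 ferroptosis genes higher and 0 lower. Under median scaling 0 ferritin loading, 0 heme and 0 ferroptosis genes were lower and 1 antioxidant gene higher. With summed transcripts 2 cytosolic cluster genes were lower. The cause of these differences was not tested.

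Leaving out each library left 1 in its condition, which was assumed to vary like the other condition. Members called higher then ranged from 1 to 2, ferritin loading genes lower from 0 to 1, heme genes lower from 0 to 1, mitochondrial genes higher from 0 to 1 and lower from 1 to 2, cytosolic cluster genes lower from 0 to 2, antioxidant genes higher from 0 to 1 and ferroptosis genes lower from 0 to 1.

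The log2 fold change of single genes changed sign 12 times. With each library left out, FTL ranged from -0.0298, without TCP replicate 2, to 0.082, and ISCA1 from -0.0528 to 0.0509, with 0.0109 without TCP replicate 1. Under quantile normalization SNX3 was at 0.104, PCBP2 at 0.0622, SKP1 at 0.0382, BLVRA at 0.2065, ISCA1 at 0.2497, FAM96B at 0.0519, GPX4 at 0.0143 and POR at 0.064. ISCA1 was also at 0.0403 under median scaling.

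The replicate numbers name samples only, and libraries sharing a number had deviations from their condition means that correlated at 0.093. With the replicate block, 1285 genes were called higher and 1131 lower, and 1 member higher, the same counts as without it. Genes near an FPKM of 1 rest on few tags, as SLC40A1 does with 96 in TCP replicate 2.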
